A study of Zea mays with 12 samples.

Results

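Reciprocal hybrids carry the same pair of nuclear genomes and differ in which line bore the seed. Here 3 arrays of the maize hybrid B73xMo17 were set against 3 arrays of Mo17xB73, 6 of the 12 arrays in the study; the other 6 were from the inbred parents, 3 of B73 and 3 of Mo17. Maize breeders write the seed parent first, so B73 is taken as the mother of B73xMo17 and Mo17 as the mother of Mo17xB73, which the sample labels do not state. Every group was immature ear tissue of field-grown plants, frozen after husks and silks were taken off by hand. Each biological replicate was a pool of 6 ears, which measured 3.7 to 5.4 mm, and ears were picked on 3 consecutive days. The labels do not tie a replicate to a day. No treatment was applied, and no transgene or mutant allele is named for any group. All 4 genotypes were read on the same type of Affymetrix maize array, so the parental difference and the hybrid difference can be set side by side.

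In plants the plastids and mitochondria usually come through the egg, so the seed parent gives the hybrid its cytoplasm as well as 1 set of chromosomes. A further route to a difference between reciprocal crosses is imprinting, in which a gene is read mainly from the copy of 1 parent. In flowering plants imprinting is known mostly from the endosperm, the nourishing tissue of the seed. The immature ear comes before fertilisation and consists of meristems, spikelets and young florets of the hybrid plant itself. The comparison of the reciprocal hybrids therefore asks whether transcript levels in the body of the plant depend on the direction of the cross.

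The deposited signals had array medians of 127, 181 and 185 in B73xMo17 and 143, 167 and 153 in Mo17xB73, against 149, 231 and 196 in B73 and 123, 145 and 157 in Mo17. Every array was scaled to the same median of 163 before comparison, and signals under a floor of 12.5 were set to it. Of the 17621 probe sets other than controls, 11126, or 63.1%, were bright enough to test. The 3'-to-5' signal ratio of the actin control, a sign of RNA integrity, was 1.60 to 1.75 in B73xMo17 and 1.58 to 1.78 in Mo17xB73. That of the GAPDH control was uneven, at 4.54, 0.738 and 4.95 in B73xMo17 and 0.922, 3.06 and 3.296 in Mo17xB73, and its part in the results was not tested. Among markers of other tissues, 6 of 35 endosperm and kernel probe sets, 1 of 7 pollen and anther probe sets and 0 of 10 silk probe sets were bright enough to test. Of the leaf and husk markers 16 of 25 were, a share near that of all probe sets. Signals of different probe sets are not compared in level, because their probes differ.

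No probe set differed between B73xMo17 and Mo17xB73 in limma at an adjusted p under 0.05, so 0 of 11126 (0%) passed, and the adjusted p was at least 0.9998 for every probe set. At an unadjusted p under 0.05 there were 223 probe sets, or 2%. Of these, 127 (1.14%) were higher and 96 (0.863%) lower in B73xMo17. The 3 arrays of one hybrid lay wholly above or below the 3 of the other for 990 probe sets, or 8.9%, with 561 higher and 429 lower in B73xMo17. For exchangeable arrays such a separation has a probability of 0.1, and an unadjusted p under 0.05 one of 0.05. Neither share exceeded these, so arrays without overlap do not by themselves set a probe set apart. The 223 became 478 without Mo17xB73 replicate 3 and 145 without B73xMo17 replicate 3. On the signals as deposited, without scaling, 6 probe sets passed, and 1, the unnamed Zm.16513.11.A1_x_at, passed without B73xMo17 replicate 2. A mean difference of at least 2-fold occurred for 9 probe sets (0.0809%), and none reached 4-fold. The median of all 11126 differences was 0.02 (log2), and 56.1% of them were above 0, that is, higher in B73xMo17.

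The inbred parents, on other arrays of the same type and in the same limma fit, differed widely in signal. What part of this lay in transcript level and what part in how the probes match each line was not tested. B73 and Mo17 differed at an adjusted p under 0.05 for 4746 probe sets, or 42.7%, of which 1763 were higher and 2983 lower in B73. Their arrays did not overlap for 5457 probe sets (49%), and 1377 (12.4%) differed at least 2-fold. The median size of a difference was 0.07 on the log2 scale between the hybrids and 0.29 between the inbreds, and the 99th percentile was 0.46 between the hybrids and 4.43 between the inbreds. Computed across probe sets, a description in which each probe set is 1 point, the correlation of log2 signal between a B73xMo17 array and a Mo17xB73 array ran from 0.979 to 0.990. Pairs of arrays within B73xMo17 had 0.985 to 0.990 and pairs within Mo17xB73 had 0.980 to 0.985, whereas a B73 array and a Mo17 array had 0.798 to 0.828.

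**Figure D1:**
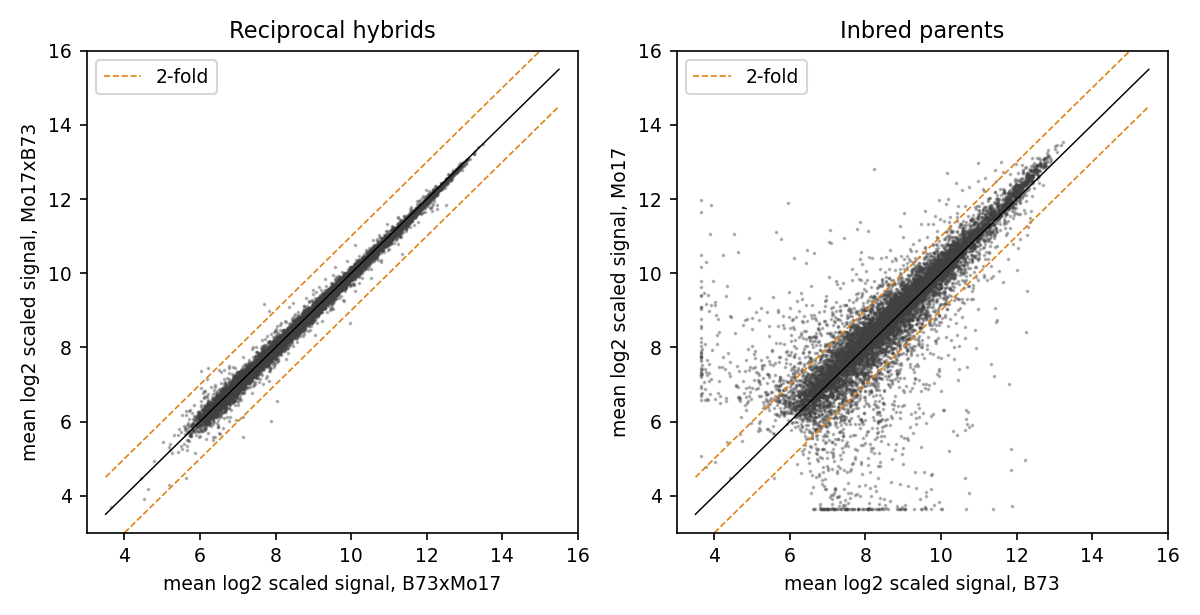
Mean log2 scaled signal of 3 arrays per genotype for the 11126 probe sets tested, with Mo17xB73 plotted against B73xMo17 on the left and Mo17 against B73 on the right; the solid line marks equal signal and the dashed lines a 2-fold difference. The hybrids leave 9 probe sets outside the 2-fold lines and the inbreds 1377.

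The fit also gives how large a difference these arrays could have left unseen. The 95% confidence interval of the B73xMo17 minus Mo17xB73 difference lay inside 2-fold in both directions for 10925 probe sets, or 98.2%, and inside 1.5-fold for 9879, or 88.8%. The median standard error was 0.13 and the median half-width of the interval 0.28 on the log2 scale. Precision followed signal: intervals inside 1.5-fold made up 66.1% of the dimmest 20% of probe sets and 96.8% of the brightest 20%. The interval reached past 2-fold for 201 probe sets, whose median signal was 94.3, against 382 over all probe sets tested. For these the arrays leave a 2-fold difference possible, and the 9 probe sets with a mean difference of at least 2-fold are among them by definition. Of 843 probe sets with a usable gene symbol, 821 had an interval inside 2-fold. Arrays of B73xMo17 varied slightly less among themselves, with a median SD of 0.10 on the log2 scale, than those of Mo17xB73, with 0.13. The inbred arrays, with 0.16 in B73 and 0.15 in Mo17, also entered the spread behind these intervals. With the 6 hybrid arrays alone, 10966 intervals lay inside 2-fold and 409 probe sets had an unadjusted p under 0.05 in limma.

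Probe sets that detect the transcript of 1 inbred alone were taken to follow that parent's copy in the hybrid, which was not tested. There were 105 probe sets at the floor on all 3 arrays of one inbred and at least 8 times the floor on all 3 of the other, 73 of them detected in B73 and 32 in Mo17. Each such probe set was above the floor on all 6 hybrid arrays, in both directions of the cross. Median signal relative to the detected parent was 49.8% in B73xMo17, with quartiles at 45.3% and 54.7%, and 49.4% in Mo17xB73, with quartiles at 46.0% and 55.5%. Where a single copy contributed at its parental rate, 50% would be read. The 73 probe sets detected in B73 had a median of 51.8% in B73xMo17, where B73 is the first-named parent, and 52.5% in Mo17xB73. The 32 detected in Mo17 had 45.5% in B73xMo17 and 46.9% in Mo17xB73. By array, the median over all 105 was 47.7%, 50.04% and 50.9% in B73xMo17 and 49.7%, 51.3% and 49.97% in Mo17xB73, so the hybrids overlapped.

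Every single-parent probe set was above the floor on all hybrid arrays. So none could be near the detected parent (50% to 200% of it) in one hybrid and at the floor in the reciprocal one. The counts of 0 for the seed-parent copy alone and 0 for the pollen-parent copy alone follow from this and add no support. For 99 of the 105 the interval of the difference lay inside 2-fold. The difference favoured B73xMo17 for 50 and Mo17xB73 for 55. Over all 17621 probe sets, 0 were at the floor on every array of one hybrid and at 2 or more times the floor on every array of the other, in either direction, while the inbreds had 159 such probe sets for B73 and 68 for Mo17.

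**Figure D2:**
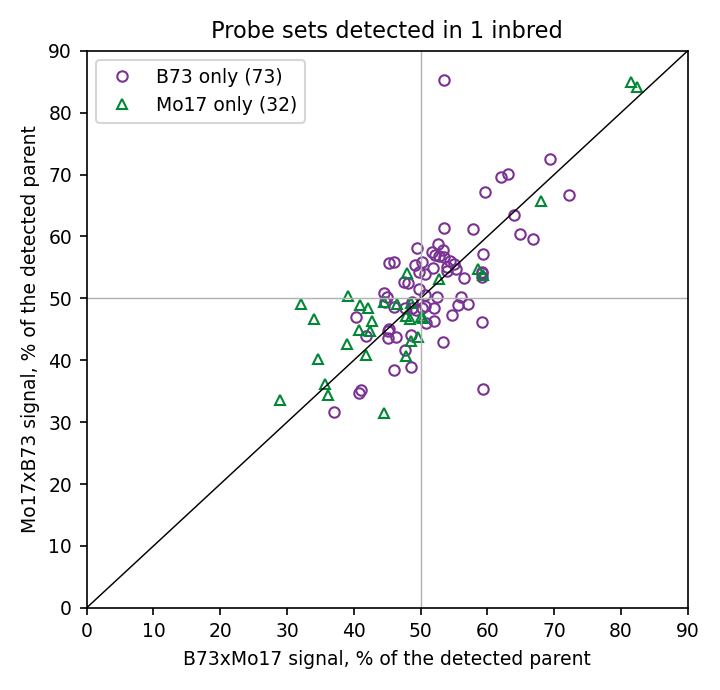
Signal in B73xMo17 (horizontal) and in Mo17xB73 (vertical) as a percentage of the detected inbred, for 105 probe sets at the floor in the other inbred; circles were detected in B73 and triangles in Mo17, grey lines mark 50% and the diagonal equal signal. Medians were 49.8% in B73xMo17 and 49.4% in Mo17xB73, and no probe set lies near 0 on either axis.

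The 1 named gene in this class was HRGP, whose product is a wall glycoprotein rich in hydroxyproline, by the probe set Zm.162.1.A1_x_at. Its signal was 1916, 1526 and 1573 in B73xMo17 and 1996, 1553 and 2070 in Mo17xB73, with overlapping arrays and none detected in Mo17. This amounted to 62.1% of B73 in B73xMo17 and 69.6% of B73 in Mo17xB73, a difference of -0.16 ± 0.14 (SE) on the log2 scale. The probe set with the smallest p in this class, Zm.5083.3.A1_at, was detected in Mo17 alone and carries no gene name in the annotation. It read 1482, 1725 and 2187 in B73xMo17 and 1228, 1325 and 1271 in Mo17xB73, without overlap, and its difference of 0.48 ± 0.13 had an unadjusted p of 0.00276. Both hybrids were below the Mo17 mean of 4044. Other probe sets of its cluster did read signal in B73, so the class describes probe sets and not whole genes. The widest mean difference in this class was that of Zm.14845.1.S1_at, detected in B73 alone, with 132, 153 and 95.6 in B73xMo17 and 30.2, 89.3 and 108 in Mo17xB73. Its arrays overlapped, and the low value of Mo17xB73 replicate 1 stood apart. In the other direction Zm.2920.1.A1_at, also detected in B73 alone, had 111, 85.9 and 139 in B73xMo17 and 215, 198 and 121 in Mo17xB73, again with overlap.

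The hybrids were next compared over all probe sets that differed clearly between the parents. For each hybrid array the position between the parents was the median of 1350 probe sets that passed between B73 and Mo17 with at least a 2-fold difference, which include the 105 single-parent ones. On this scale 0 is the mean of the parental signals, 1 the B73 level and -1 the Mo17 level. The median position was 0.0848, 0.0901 and 0.106 on the B73xMo17 arrays and 0.0853, 0.0973 and 0.0853 on the Mo17xB73 arrays. All 6 arrays lay slightly on the B73 side of the midparent, and the hybrids overlapped. Their means were 0.0936 ± 0.0110 in B73xMo17 and 0.0893 ± 0.0069 in Mo17xB73 (SD, n = 3 each), with an exact two-sided permutation p of 0.7, where the smallest p that 3 against 3 arrays allow is 0.1. Among the 741 probe sets higher in B73, the mean position was 0.0479 in B73xMo17 and 0.0404 in Mo17xB73 (exact p = 0.9). Among the 609 higher in Mo17 it was 0.143 in B73xMo17 and 0.145 in Mo17xB73 (exact p = 0.9).

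**Figure D3:**
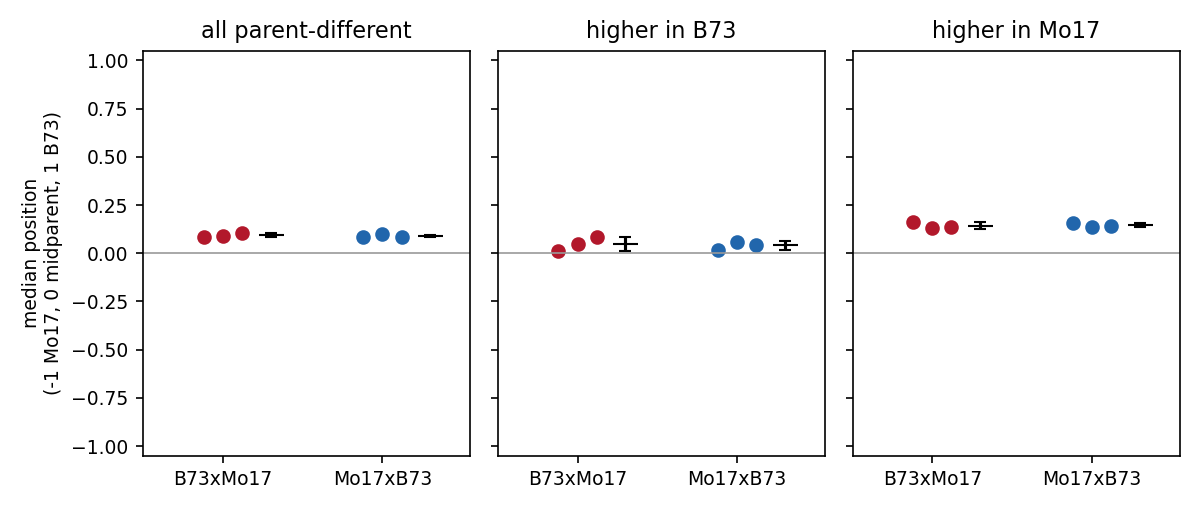
Median position between the parents on each of the 3 arrays of B73xMo17 and of Mo17xB73 (points), with the mean and SD of the 3 arrays (bars), for all 1350 parent-different probe sets and for the 741 higher in B73 and 609 higher in Mo17; the axis runs from Mo17 at -1 to B73 at 1. The arrays of the hybrids overlap in each panel, between 0.0122 and 0.162.

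The sign of the hybrid difference was also set beside that of the parental one. B73xMo17 minus Mo17xB73 had the same sign as B73 minus Mo17 for 671 of the 1350 probe sets, or 49.7% (Clopper-Pearson 95% interval 47.0 to 52.4%, which treats probe sets as independent). The share was 51.3% of 579 probe sets at 4-fold and 52.3% of 327 at 8-fold between the parents. The slope of the hybrid difference on the parental difference was 0.00052 over the 1350 probe sets, that is, close to 0 where 1 would mean a difference as large as that of the parents. Over all probe sets tested the share was 47.8%.

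Genes known for expression by parent of origin were few on the array. The list of genes imprinted in maize endosperm held 3 measured members, all of Polycomb group complexes, which silence genes through histone methylation, and 0 passed. The subunit gene fie2 had signals of 392, 423 and 398 in B73xMo17 and 360, 397 and 442 in Mo17xB73. The histone methyltransferase gene mez1 had 529, 584 and 544 in B73xMo17 and 496, 579 and 604 in Mo17xB73. The arrays of the hybrids overlapped for both genes, and the differences of 0.02 ± 0.10 for fie2 and -0.02 ± 0.12 for mez1 had intervals inside 1.5-fold. Both differences took the other sign under some alternatives. The third gene, fie1, which is known for expression from the maternal copy in endosperm, was at the floor on 3 of 3 arrays of B73xMo17 and read 12.5, 12.5 and 15.6 in Mo17xB73, so it was not tested. No probe set was annotated to a plastid or mitochondrial gene, and transcripts of the organelles themselves were not analysed here. Of nuclear genes whose proteins work in organelles, 27 probe sets were tested, 0 passed, and 17 were higher and 10 lower in B73xMo17, with a median difference of 0.08 against 0.02 over all probe sets.

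In that organelle list CPN60I, which encodes a chaperonin of the mitochondrion, had the smallest unadjusted p (0.0149). Its signals of 2235, 1728 and 2192 in B73xMo17 and 1699, 1466 and 1680 in Mo17xB73 did not overlap, and the difference was 0.34 ± 0.12. The aldehyde dehydrogenase gene rf2b had 1703, 1644 and 1262 in B73xMo17 and 1675, 1987 and 2089 in Mo17xB73. These arrays overlapped (difference -0.33 ± 0.16, unadjusted p = 0.0668).

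Since none passed, the named genes with the smallest unadjusted p are given as values rather than as changes. Among those with higher means in B73xMo17, aprl1 came first, a gene of the adenylylsulfate reductase-like family. It read 555, 557 and 463 in B73xMo17 and 268, 454 and 277 in Mo17xB73. The arrays did not overlap, although Mo17xB73 replicate 2 came close, and the difference was 0.69 ± 0.19 (95% interval 0.29 to 1.10; unadjusted p = 0.00242). The light-harvesting chlorophyll protein gene lhcb5 read 987, 1064 and 1072 in B73xMo17 and 926, 802 and 769 in Mo17xB73, without overlap (0.33 ± 0.10). The glutamine synthetase gene gln2, which acts in nitrogen assimilation, read 152, 143 and 122 in B73xMo17 and 107, 111 and 108 in Mo17xB73. It did not overlap either, and its difference was 0.35 ± 0.14. The aquaporin PIP1-3, a water channel of the plasma membrane, read 1459, 1324 and 1432 in B73xMo17 and 1157, 1173 and 1186 in Mo17xB73, a difference of 0.26 ± 0.10. A further probe set of PIP1-3 differed by 0.23 ± 0.13, in the same direction.

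The asparagine synthetase gene asn1, whose product stores nitrogen as asparagine, had the largest difference of any named probe set. By Zm.2073.2.S1_a_at it read 313, 355 and 163 in B73xMo17 and 37.0, 146 and 158 in Mo17xB73. The lowest B73xMo17 array lay just above the highest Mo17xB73 array, and Mo17xB73 replicate 1 stood far below the rest. The difference was 1.47 ± 0.44 (unadjusted p = 0.00465), and in the inbreds asn1 was lower in B73 than in Mo17 (-3.18, adjusted p in limma 3.4e-05). On the signals as deposited, without scaling, asn1 did pass (difference 1.54, adjusted p in limma 1.5e-05). The smallest adjusted p in limma there, 2.3e-08, belonged to Zm.2361.1.A1_at, whose arrays overlapped (1.86 ± 1.12 after scaling). A pass on the deposited signals therefore did not require that the arrays of the hybrids separate.

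Among genes with lower means in B73xMo17, the ethylene response factor gene ERF1 read 511, 413 and 426 in B73xMo17 and 746, 734 and 492 in Mo17xB73. The arrays overlapped, with Mo17xB73 replicate 3 at the level of B73xMo17, and the difference was -0.53 ± 0.15 (unadjusted p = 0.0035). The sulfite reductase gene sir read 83.4, 98.0 and 102 in B73xMo17 and 180, 217 and 110 in Mo17xB73. Its arrays did not overlap, replicate 3 of Mo17xB73 was again the closest to B73xMo17, and the difference was -0.79 ± 0.29. The hemoglobin gene GLB1 read 230, 189 and 213 in B73xMo17 and 374, 307 and 235 in Mo17xB73, a difference of -0.51 ± 0.19 without overlap. The expansin gene expa1, which loosens cell walls, read 145, 235 and 230 in B73xMo17 and 336, 348 and 223 in Mo17xB73, with overlap (-0.58 ± 0.24). The cytokinin response regulator RR5 read 331, 376 and 356 in B73xMo17 and 466, 419 and 376 in Mo17xB73. Its closest arrays, B73xMo17 replicate 2 and Mo17xB73 replicate 3, lay at nearly the same signal (-0.24 ± 0.12).

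**Figure D4:**
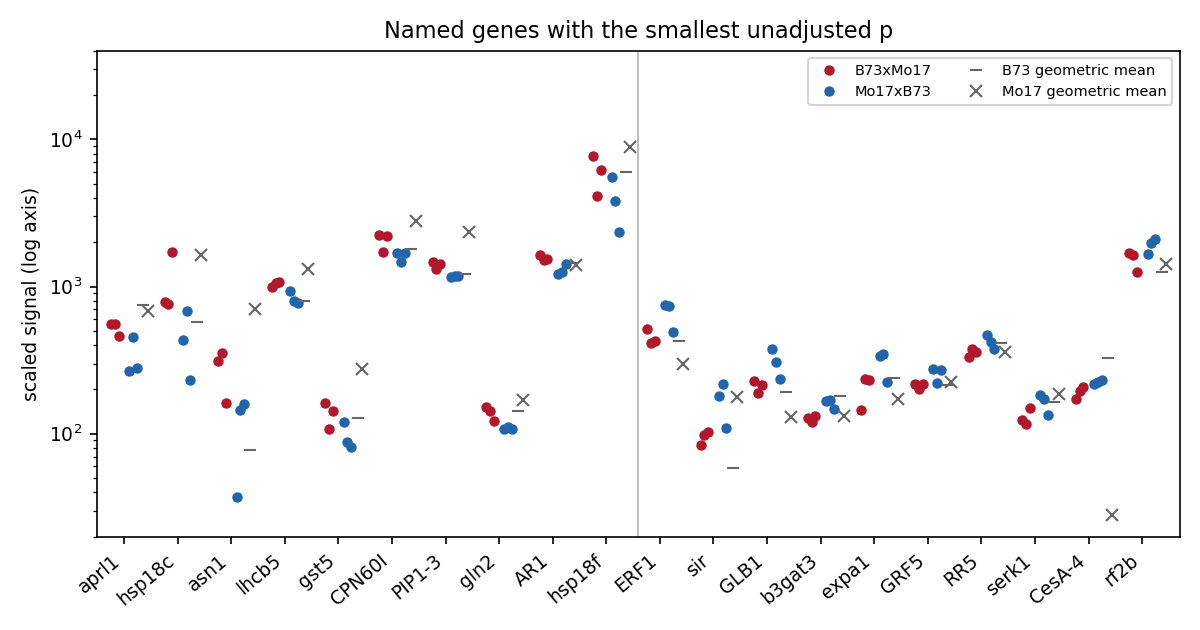
Scaled signal on a log axis for the 10 named genes with the smallest unadjusted p and a higher mean in B73xMo17 (left of the grey line) and the 10 with a lower mean (right of it); points are the 3 arrays of B73xMo17 and the 3 of Mo17xB73, grey dashes and crosses the geometric means of B73 and Mo17. No gene passed, and asn1 and hsp18c have the largest mean differences.

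Heat shock genes, which encode chaperones and respond to temperature, were the fixed list with the largest median difference. Of 10 measured probe sets 9 were tested, 0 passed, 8 were higher and 1 lower in B73xMo17, and 2 had an unadjusted p under 0.05. Over all probe sets 56.1% were higher in B73xMo17 and 2% had such a p. The list's median difference was 0.44, against 0.02 over all probe sets, and only 3 of the 9 had an interval inside 2-fold. The small heat shock protein gene hsp18c read 786, 763 and 1716 in B73xMo17 and 431, 679 and 232 in Mo17xB73. Its arrays did not overlap (1.31 ± 0.38, unadjusted p = 0.00371), and it passed on the signals as deposited (1.38, adjusted p in limma 9.0e-05). As for asn1, a pass there did not require separated arrays. The related hsp18f read 7653, 4114 and 6232 in B73xMo17 and 5578, 3823 and 2357 in Mo17xB73, with overlap (0.65 ± 0.27). The chaperone genes hsp101 and hsp22 differed by 0.44 ± 0.36 and 0.55 ± 0.30, and hsp70-4 by 0.03 ± 0.12.

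The mean log2 signal of the 9 probe sets was 10.51, 10.30 and 11.10 in B73xMo17 and 10.30, 10.47 and 9.76 in Mo17xB73, so that B73xMo17 replicate 3 was the highest and Mo17xB73 replicate 3 the lowest while the other 4 overlapped. In the inbreds the same mean was 9.99, 10.54 and 11.07 in B73 and 11.59, 11.35 and 11.55 in Mo17. Without B73xMo17 replicate 3 the median difference of the list was 0.24, and without Mo17xB73 replicate 3 it was 0.26. What part the day of collection had in this was not tested.

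The other gene lists, tissue markers aside, none of which had a probe set that passed, had median differences between -0.04 and 0.08. Their counts in each direction stand against the 56.1% of all probe sets that were higher in B73xMo17. Inflorescence meristem and ear architecture genes had 10 higher and 10 lower in B73xMo17 (median 0.00). The homeobox gene kn1, which maintains meristems, read 1973, 2049 and 1770 in B73xMo17 and 2216, 2173 and 2321 in Mo17xB73. These arrays did not overlap, and the difference was -0.21 ± 0.15 (unadjusted p = 0.169). MADS-box floral genes, which specify floral organs, had 11 higher and 7 lower (median 0.02), and all but 1 of the 18 had an interval inside 2-fold. Histone and chromatin genes had 25 higher and 27 lower (median -0.01), and 51 of 52 intervals lay inside 2-fold. Cell cycle genes had 9 higher and 15 lower (median -0.02).

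Translation genes had 24 of 29 probe sets higher in B73xMo17, at a median difference of 0.06. The ribosomal protein gene rps13 read 2789, 2814 and 2781 in B73xMo17 and 2065, 2431 and 2553 in Mo17xB73, without overlap (0.26 ± 0.12, unadjusted p = 0.0504). Aquaporin genes had 14 of 18 higher, at a median of 0.07. Cell wall and cytoskeleton genes had 12 higher and 23 lower (median -0.04). Their member CesA-4, a cellulose synthase gene, read 171, 194 and 208 in B73xMo17 and 217, 226 and 232 in Mo17xB73, without overlap. Its mean signal was 325 in B73 and 27.99 in Mo17. Hormone genes had 8 higher and 12 lower (median -0.02), starch and sucrose genes 5 and 8 (median -0.04), glycolysis and fermentation genes 13 and 12 (median 0.01), and benzoxazinoid and defence genes 3 and 5 (median -0.01). The vacuolar invertase gene ivr2, which splits sucrose, read 1297, 1271 and 1209 in B73xMo17 and 546, 1202 and 1220 in Mo17xB73. A single array, Mo17xB73 replicate 1, was low, and the others overlapped.

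Photosynthesis genes served as markers of leaf and husk. Of their 16 tested probe sets 10 were higher and 6 lower in B73xMo17, at a median of 0.06, and the mean log2 signal of the whole list was 6.88 to 7.04 in B73xMo17 and 6.85 to 6.93 in Mo17xB73. The Rubisco small subunit gene rbcs1 read 135, 131 and 102 in B73xMo17 and 86.0, 100 and 76.1 in Mo17xB73, without overlap, although the lowest B73xMo17 array and the highest Mo17xB73 array nearly touched (0.49 ± 0.22, unadjusted p = 0.048). A probe set of the same array cluster number, Zm.6763.4.S1_a_at, read 122, 150 and 117 in B73xMo17 and 94.2, 79.7 and 87.3 in Mo17xB73 (0.57 ± 0.15). The other probe sets of that cluster number, Zm.6763.2.A1_at and Zm.6763.4.S1_at, differed by 0.23 ± 0.15 and 0.15 ± 0.22. Ppdk1, by Zm.4471.3.A1_x_at, went furthest the other way on this list (-0.26 ± 0.20). It read 135, 127 and 149 in B73xMo17 and 153, 160 and 180 in Mo17xB73, also without overlap. The part of leaf or husk tissue in these values was not tested. In pooled tissue, fewer cells of a type and less RNA per cell cannot be told apart. The endosperm and kernel markers, at a mean log2 signal of 4.45 to 4.48 in B73xMo17 and 4.45 to 4.50 in Mo17xB73, stood near the floor of 3.64.

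Of all probe sets, the smallest unadjusted p was 0.000579, for Zm.6787.2.A1_at, which has no gene name in the annotation. It read 1186, 1166 and 1185 in B73xMo17 and 761, 805 and 1002 in Mo17xB73, without overlap (0.47 ± 0.11). The other probe sets of its cluster differed by 0.26 and 0.07. Zm.11621.1.A1_at read 101, 83.6 and 92.1 in B73xMo17 and 43.7, 55.8 and 54.2 in Mo17xB73, a difference of 0.85 ± 0.20 without overlap. Another probe set of its cluster differed by 0.33 and the remaining one by 0.07. In the other direction, Zm.1592.1.A1_at read 244, 255 and 283 in B73xMo17 and 359, 390 and 335 in Mo17xB73, also without overlap (-0.47 ± 0.11).

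The 9 probe sets with at least a 2-fold mean difference, 5 higher and 4 lower in B73xMo17, mostly had arrays that scattered widely within a hybrid. In 2 of the 9, asn1 and hsp18c, the arrays of the hybrids did not overlap. The 6 that passed in limma on the signals as deposited were all among these 9: asn1, hsp18c, Zm.2361.1.A1_at, Zm.16227.1.A1_at, Zm.15899.2.A1_at and Zm.15899.2.A1_x_at. The largest difference, 1.86 ± 1.12, belonged to Zm.2361.1.A1_at, with 128, 140 and 741 in B73xMo17 and 67.1, 288 and 14.4 in Mo17xB73. Its arrays overlapped, and it ranged just as widely in B73, at 61.2, 590 and 1799. All 4 lower probe sets belonged to the array cluster Zm.15899, which is unnamed in the annotation, so they are not independent. Its probe set Zm.15899.2.A1_x_at read 187, 182 and 255 in B73xMo17 and 820, 981 and 241 in Mo17xB73. Replicates 1 and 2 of Mo17xB73 were high, and replicate 3 lay within the range of B73xMo17. The same arrays were high for Zm.15899.2.A1_at, Zm.15899.1.A1_a_at and Zm.15899.4.A1_x_at, whose replicate 3 of Mo17xB73 likewise lay in the range of B73xMo17. The 4 differences ran from -1.15 to -1.49. The high arrays of Zm.15899.2.A1_x_at also exceeded both inbreds, which had means of 194 in B73 and 91.9 in Mo17.

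**Figure D5:**
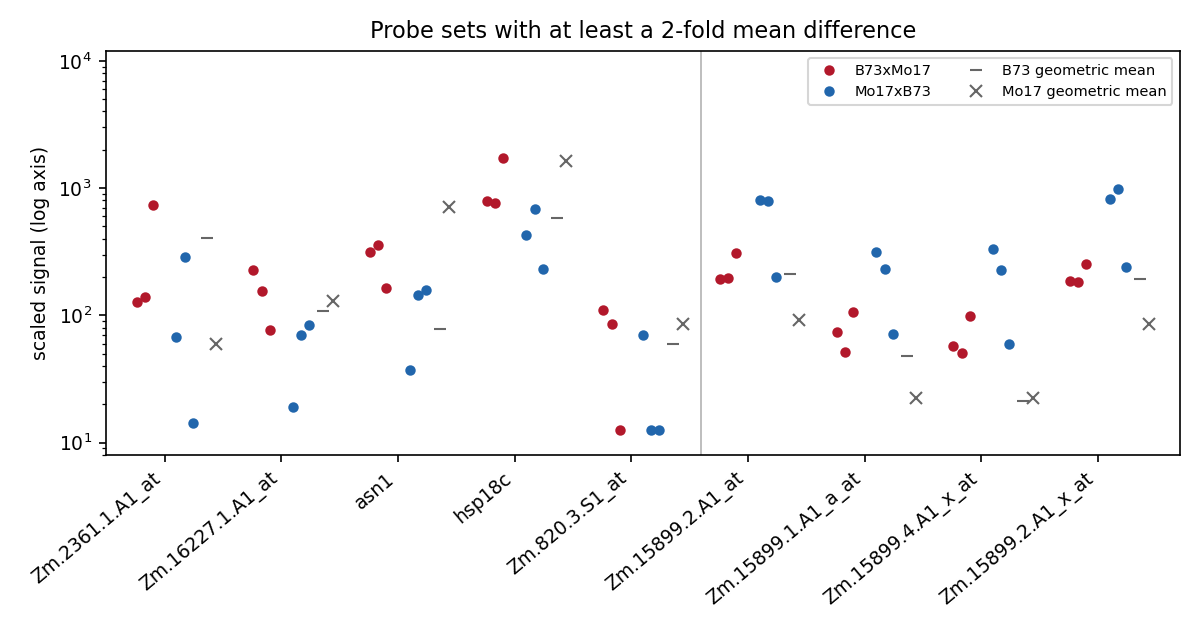
Scaled signal on a log axis for the 9 probe sets with at least a 2-fold mean difference, 5 higher in B73xMo17 (left of the grey line) and 4 lower (right of it); points are the 3 arrays of each hybrid, grey dashes and crosses the geometric means of B73 and Mo17. Only asn1 and hsp18c separate the arrays of the hybrids, and the 4 probe sets of cluster Zm.15899 share high values in replicates 1 and 2 of Mo17xB73.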

How the data were processed

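Total RNA from pools of immature ears was hybridised to 1 Affymetrix maize array per pool. The deposited values were linear signal intensities, 1 per probe set and array, for which the submitters' processing notes name MAS5. Its version and scaling target were not given in the sources used here. Array medians differed, and the number of arrays limits the precision. The hybrids, the lists and the named genes were chosen with earlier results of these data known.

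From the 17734 probe sets, 113 AFFX controls were left out. Arrays were scaled to 1 median, signals under the median 20th percentile (12.5) were raised to it, and log2 was taken. Probe sets above the 40th percentile of their array on at least 3 of 12 arrays were kept (11126 kept, 6495 removed). The model had 1 mean for each of the 4 genotypes over the 12 arrays (R 4.3.3, limma 3.58.1: lmFit, then eBayes with intensity trend, with 8 residual degrees of freedom). It was tried on simulated data with independent noise on each array. Deviations that same-numbered arrays have in common were not simulated. The Benjamini-Hochberg adjustment ran over all probe sets kept. The position between the parents was computed on the linear signal scale, with an exact permutation test over arrays.

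Gene names came from the platform annotation (1452 probe sets with 1 gene, 1 with several, 16168 with none there) and symbols from RefSeq (assembly Zm-B73-REFERENCE-NAM-5.0), where 1377 were found, leaving 1270 usable names. Probe sets named in the text were, in each direction, 10 with a usable symbol and 5 of any name with the smallest p (since none passed), up to 3 per list, every measured imprinted gene and 3 single-parent probe sets. The members of the 9 with a 2-fold difference, HRGP, heat shock genes beyond the 3, and probe sets sharing a cluster were added after their values were seen. Alternatives varied the scaling, floor, filter, variance model, arrays and replicate block. Python 3.11.15 drew the figures.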

Additional observations from a re-analysis of the deposited data

How the results depend on the processing

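The count of 0 passing probe sets held in 15 of 17 alternatives. On the signals as deposited, 6 passed (4 higher and 2 lower in B73xMo17), among them asn1, hsp18c and Zm.15899.2.A1_x_at, while 85 had an unadjusted p under 0.05. The smallest adjusted p in limma, 2.3e-08, was that of Zm.2361.1.A1_at, at a difference of 1.93. In the main fit its difference was 1.86 ± 1.12, with an unadjusted p of 0.118 in limma. The cause of this contrast between the settings was not tested. Leaving out 1 hybrid array gave 0 to 1 passing, 0 to 1 of them higher and 0 lower; the 1 was Zm.16513.11.A1_x_at without B73xMo17 replicate 2 (0.95, adjusted p in limma 0.0218). The count at an unadjusted p under 0.05, 223 as reported, was 478 without Mo17xB73 replicate 3, 145 without B73xMo17 replicate 3, 409 with the 6 hybrid arrays alone, 409 with no filter and 132 with the stricter filter. Intervals inside 2-fold numbered 7613 to 15977, following the number of probe sets tested. The difference in position, 0.00431 as reported, changed sign to -0.00124 at 4-fold between the parents and ran from -0.00146 (without B73xMo17 replicate 3) to 0.00900 when 1 array was left out, it was 0.0614 as deposited and 0.0153 with the higher floor; the exact p with the higher floor was 0.1, the smallest that 3 against 3 arrays allow, and it was 0.4 to 1 under the other alternatives. The log2 scale for position, added after the data were seen, gave 0.00736. The share with the parental sign was 62.5% as deposited. Single-parent probe sets numbered 45 with the higher floor, at medians of 53.6% in B73xMo17 and 54.7% in Mo17xB73; as deposited the medians were 45.7% in B73xMo17 and 43.6% in Mo17xB73, and at 4 times the floor 51.6% in B73xMo17. Of the 75 named probe sets tested, 6 (fie2, mez1, sus2, bt2, ae1 and TUA1) changed sign under at least 1 alternative. None of the 29 named for the smallest p, among all probe sets or among those with a usable symbol, changed sign. These 29 were picked by p on the same arrays, so their stable sign is not independent support. Same-numbered arrays of the hybrids deviated together for numbers 1 and 2 (correlations 0.46 and 0.36) and not for 3 (-0.04). B73xMo17 replicate 2 with Mo17xB73 replicate 1 had -0.46, and B73xMo17 replicate 1 with Mo17xB73 replicate 2 had -0.40. The main model did not pair the arrays by number, and what same-numbered arrays share was not tested. With the replicate block 0 passed and 266 had an unadjusted p under 0.05 in limma.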

Other observations

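Some housekeeping genes varied between the arrays of each hybrid far more than between the hybrids. The glyceraldehyde-3-phosphate dehydrogenase gene GAPC, by Zm.274.3.S1_at, read 1012, 244 and 832 in B73xMo17 and 1141, 326 and 738 in Mo17xB73. In both hybrids replicate 2 was the lowest, and the difference between the hybrids was -0.14. The translationally controlled tumour protein gene TCTP, by Zm.6189.3.S1_at, read 494, 158 and 432 in B73xMo17 and 486, 149 and 367 in Mo17xB73, again lowest in replicate 2 of both. Likewise elfa2, an elongation factor gene, by Zm.3892.18.S1_a_at, read 200, 58.0 and 138 in B73xMo17 and 217, 65.6 and 160 in Mo17xB73. In the inbreds TCTP had 264, 132 and 167 in B73 and 609, 218 and 297 in Mo17, lowest in replicate 2 of each as well. The inbred B73 did not follow this for elfa2, which was lowest in replicate 3 with 90.1, 83.2 and 47.1, nor for rpp1a with 54.3, 51.0 and 41.2 and M8 with 59.9, 62.6 and 34.2. These genes were picked for their spread over the 6 hybrid arrays, after their values were seen, and the labels do not say what arrays of one number share.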
